A study of Mus musculus with 6 samples.

Results

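DNA replication genes, from origin licensing to chromatin assembly, were compared between 2 sorted mouse bone marrow progenitor populations, CD27-low MOP and CD27-high MODP. The members were the rows of the read-count table whose Ensembl identifiers map to 41 chosen symbols; all 41 were among the 22271 genes of the table and all 41 were deep enough to be tested. The MOP group had 3 libraries, and so did the MODP group. All 6 were total RNA of cells sorted by flow cytometry from the marrow of C57BL/6JRj mice, whose library titles carry the code WT; the labels used here do not state age, sex or whether animals were pooled. CD27 is a receptor of the TNF receptor family and was the marker by which the labels separate the populations. The series' title places a bipotent progenitor of macrophages and osteoclasts (the MOP side) downstream of a progenitor that also gives rise to dendritic cells (the MODP side).

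Before a cell can copy its genome, the origin recognition complex, Cdc6 and Cdt1 load the Mcm2-7 helicase onto origins in G1, and geminin (Gmnn) blocks Cdt1 from loading it a second time. In S phase Cdc45, Mcm10 and the GINS complex turn the loaded helicase on, DNA polymerases alpha, delta and epsilon copy the strands, the sliding clamp Pcna holds them on the template, and ribonucleotide reductase and thymidylate enzymes supply the nucleotides. Transcription of most of these genes is driven at the G1/S boundary by E2F factors, and the marrow's progenitor pools hold many cycling cells. In bulk RNA, a larger share of cells in S phase and more transcript per cycling cell cannot be told apart.

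Promoter windows of the members were searched because E2F control is what these genes are known for. RefSeq windows (GRCm38.p6, from 250 bases before a gene's start to 50 after it) were found for 34 of the 41 members. These 3 elements were looked up on both strands: an E2F site as any of the 8-letter words TTTGGCGC, TTTCCCGC, TTTCGCGC or TTTGCCGC, the NF-Y box CCAAT, and TTTGAA, the cell cycle homology region (CHR) of genes that peak in G2 and mitosis. The windows below are those of the 5 members with the highest fold change among the 18 that passed the test (given after them) whose window held a match, and of Mcm6, which did not pass the test and was chosen after its values were seen because its window held 3 E2F words. Only bases before the start are printed, and capitals mark E2F, CCAAT and TTTGAA matches on either strand.
E2f2 (chr4:136172246-136172273, plus strand): tatatattgtagcagCCAATcgaggcgc
E2f8 (chr7:48881597-48881723, minus strand): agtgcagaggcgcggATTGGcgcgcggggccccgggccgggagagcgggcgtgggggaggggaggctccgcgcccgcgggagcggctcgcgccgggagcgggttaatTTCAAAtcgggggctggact
Rrm2 (chr12:24708189-24708223, plus strand): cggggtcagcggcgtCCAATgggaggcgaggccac
Cdc6 (chr11:98907998-98908035, plus strand): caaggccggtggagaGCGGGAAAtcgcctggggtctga
Slbp (chr5:33652622-33652697, minus strand): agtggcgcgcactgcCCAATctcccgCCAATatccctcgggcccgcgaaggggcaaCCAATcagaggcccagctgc
Mcm6 (chr1:128359706-128359830, minus strand): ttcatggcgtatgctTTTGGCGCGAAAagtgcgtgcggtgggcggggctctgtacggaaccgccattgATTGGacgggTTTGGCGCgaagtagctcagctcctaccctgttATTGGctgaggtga
The capitals in Cdc6 and the runs of capitals in Mcm6 that begin TTTGGCGC are E2F words, those in Rrm2, Slbp and E2f2 are CCAAT boxes, and E2f8 holds a CCAAT box and TTTGAA, both on the opposite strand. E2f2 had 2 windows, and the one shown also held TTTGGCGC past its start, beginning at base 40.

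E2F words occurred in the windows of 14 of 34 replication genes (41.2%), against 4.71% of 9643 genes tested that had a window. Among members with a window, 5 of the 15 that were called held an E2F word (33.3%), and so did 9 of the 19 that were not (47.4%). CCAAT was found for 21 of 34 members (61.8%) and 43.1% of genes tested, and TTTGAA for 5 of 34 (14.7%) and 14.5%. On a list of 24 mitosis genes, of which 20 had a window, TTTGAA stood in 14 (70.0%) and an E2F word in 1 (5.0%). These are matches of letters, and no test was made of the shares.

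Among the 41 replication genes, MOP had the higher level in 18 (edgeR's quasi-likelihood test, adjusted p under 0.05) and the lower level in 0, and 23 missed the threshold. None was lower at an unadjusted p under 0.05 by edgeR, and 0 were lower by DESeq2, which called 17 higher. The background over all 12850 genes tested was 16.3% higher and 14.9% lower, or 31.2% in either direction. The higher members were spread over origin licensing, helicase activation, the clamp and ligase, nucleotide supply, chromatin assembly and the E2F factors, whereas none of the 6 polymerase and primase genes passed. The differences were small: 16 of the 18 were under 1.5-fold, and the exceptions were E2f2 and E2f8. The median log2 fold change (MOP over MODP, as throughout) was 0.12 over the members and -0.01 over all genes tested. In 22 members all 3 MOP libraries lay above all 3 MODP libraries, against a background of 23.8% of genes tested, and in 0 members did they lie below (23.8% of genes tested; 47.6% in either direction).

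The count of higher members depended on single libraries. Without MOP replicate 1 it was 5 (12.2% of members, against 9.75% of all genes tested in that fit), without MOP replicate 2 it was 11 (26.8%, against 12.2%), without MODP replicate 3 it was 11 (26.8%, against 11.8%), and under upper-quartile scaling it was 11 (26.8%, against 13.2%). Cdc6, Rrm2, Tk1, Slbp and E2f8 were called in all 15 alternatives.

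**Figure D1:**
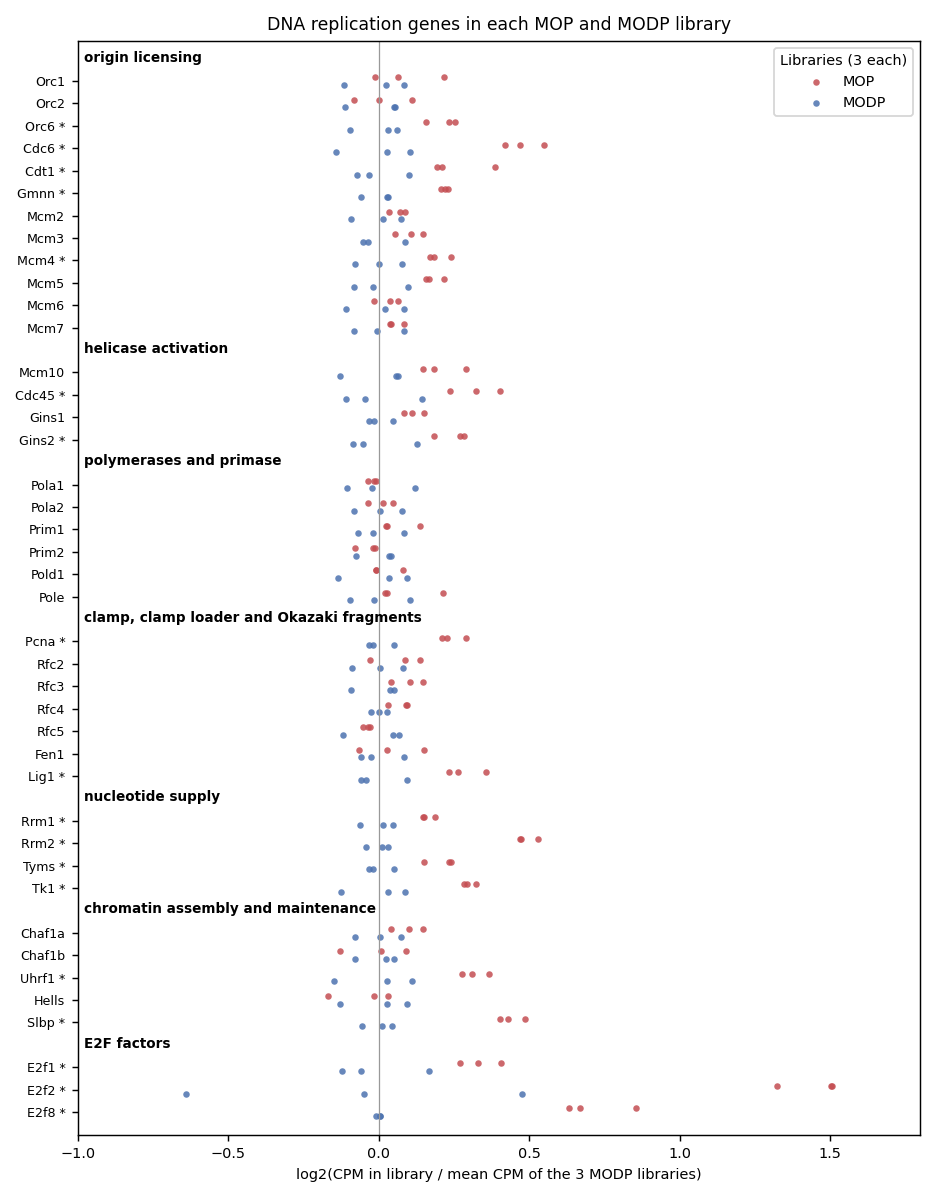
Each point is 1 library: the x axis gives the log2 ratio of its CPM (read count scaled by the TMM-adjusted library size) to the mean CPM of the 3 MODP libraries, for the 41 replication genes grouped by role, with MOP in red above MODP in blue and an asterisk on the 18 genes with an adjusted p under 0.05. E2f2 and E2f8 lie farthest to the right, and the polymerase and primase genes show overlapping groups.

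Library totals ran from 13338577 to 15892640 counts in MOP and from 10701425 to 13846749 counts in MODP, and every member had at least 107 reads in every library. Cd27 stood at 3.52 to 4.57 CPM in MOP and 35.4 to 38.9 CPM in MODP, in the direction of its label. Markers of other marrow cells differed in sum between the groups for some cell types and overlapped for others. Those of basophils and mast cells summed to 3172 to 5050.0 CPM in MOP and 515 to 1090.0 CPM in MODP. Of these 9 markers 7 were higher (77.8%, against 16.3% of all genes tested). This count was 3 with the replicate number as a block, where 21.2% of all genes tested were higher. It was 4 without MOP replicate 1, MOP replicate 3, MODP replicate 1 or MODP replicate 3, where 9.75% to 12.2% were. Those of T and NK cells summed to 67.2 to 107 CPM in MOP and 220.3 to 279 CPM in MODP, most of it Nkg7, a gene of cytotoxic granules, at 65.0 to 99.3 CPM in MOP and 204 to 240.0 CPM in MODP. Of these 8 markers 5 were lower (62.5%, against 14.9% of all genes tested). With the replicate number as a block 8 were lower, beside 2544 of 12850 genes tested. Without MOP replicate 1 or 3, 3 were lower, beside 1036 of 13134 and 1349 of 13188 genes tested. Erythroid markers overlapped in sum, at 451 to 692 CPM in MOP and 382 to 713 CPM in MODP, but 3 of 9 were higher. That was 33.3%, against 16.3% of all genes tested. Among them Klf1 stood at 25.6 to 36.3 CPM in MOP and 8.50 to 13.2 CPM in MODP. Without MOP replicate 1 or MODP replicate 1, 1 erythroid marker was higher, beside 9.75% and 11.2% of all genes tested. Neutrophil markers overlapped, with sums of 2633 to 11040.0 CPM in MOP and 2047 to 15800.0 CPM in MODP, highest in replicate 2 of each group, and 0 of 9 passed (1 without MODP replicate 2). B lineage markers overlapped too, with sums of 39.3 to 80.8 CPM in MOP and 44.4 to 133 CPM in MODP; 0 of 8 were lower, but 3 were with the replicate number as a block and 1 without MOP replicate 2. No marker was at 0 reads in any library. The part of these cells in the replication gene differences was not tested. Without replicate 2 of both groups 13 members were higher (31.7% of members, against 18.4% of all genes tested in that fit).

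The 3 E2F factors on the list were all higher in MOP, against 16.3% of all genes tested. E2f1 and E2f2 are activators of the G1/S genes, and E2f8 is an atypical member that represses them. E2f8 (ENSMUSG00000046179) stood at 314, 269 and 276 CPM in MOP replicates 1 to 3, against 174, 174 and 173 CPM in MODP. The MODP libraries were almost equal and every MOP library lay far above them. The log2 fold change of E2f8 was 0.72 ± 0.07 (SE), or 1.65-fold (edgeR adjusted p = 0.000353).

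E2f2 (ENSMUSG00000018983) stood at 195, 194 and 171 CPM in MOP, against 66.2, 95.2 and 43.9 CPM in MODP. The groups did not overlap, but the MODP libraries differed from each other, relative to their mean, by more than those of any other called member, with replicate 2 highest. Its log2 fold change was 1.45 ± 0.30 (SE), or 2.74-fold (edgeR adjusted p = 0.021), and the call was lost when any 1 of the 3 MOP libraries or MODP replicate 1 was left out (the 6 fits without a library gave edgeR adjusted p values of 0.00373 to 0.0781). E2f1 (ENSMUSG00000027490) stood at 119, 113 and 108 CPM in MOP, against 101, 82.5 and 86.0 CPM in MODP, with no overlap and a log2 fold change of 0.34 ± 0.08 (SE; edgeR adjusted p = 0.0155). The call for E2f1 was lost without MOP replicate 1 or MODP replicate 3, and without MOP replicate 1 E2f8 was the only call of the 3.

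**Figure D2:**
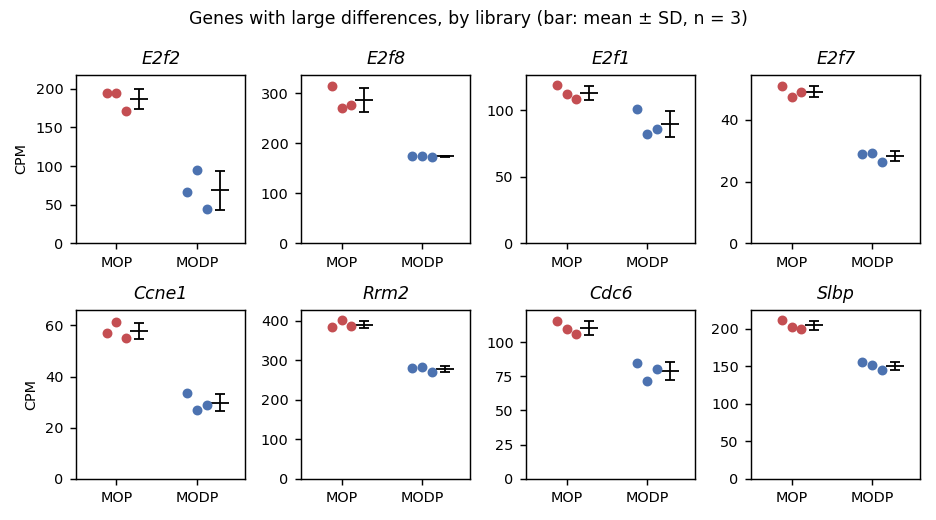
CPM in each library of 8 genes chosen after their values were seen (the 3 E2F members, 3 further members and the E2F network genes E2f7 and Ccne1), with MOP (red) left of MODP (blue) and the mean ± SD beside the points (n = 3 each); each y axis starts at 0. The groups are apart in all 8 panels, and the E2f2 panel shows the wide MODP spread, from 43.9 to 95.2 CPM.

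Genes that license origins were higher in MOP in part. Of 12 members, 5 were higher (Cdc6, Cdt1, Gmnn, Mcm4 and Orc6) and 0 lower, with 7 not called. The shares were 41.7% higher and 0% lower, against 16.3% and 14.9% of all genes tested. At an unadjusted p under 0.05 by edgeR, and by DESeq2, 0 were lower. Cdc6 (ENSMUSG00000017499), the loading factor whose E2F word is shown above, stood at 116, 109 and 106 CPM in MOP, against 84.9, 71.7 and 80.5 CPM in MODP. Every MOP library exceeded every MODP library, and the log2 fold change was 0.48 ± 0.07 (SE), or 1.39-fold (edgeR adjusted p = 0.00237).

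Cdt1 (ENSMUSG00000006585), its partner in loading the helicase, stood at 219.7, 194 and 192 CPM in MOP, against 180.4, 159.7 and 164 CPM in MODP. Gmnn (ENSMUSG00000006715), which inhibits Cdt1, stood at 78.6, 79.2 and 77.9 CPM in MOP, against 68.8, 68.9 and 64.7 CPM in MODP. Neither gene's groups overlapped. The loading factor and its inhibitor were both higher, with log2 fold changes of 0.27 ± 0.07 for Cdt1 and 0.22 ± 0.06 for Gmnn (SE; edgeR adjusted p = 0.0238 and 0.0194).

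The subunits of the Mcm2-7 ring did not all pass. Mcm4 averaged 381 ± 9.86 CPM in MOP and 333 ± 18.0 CPM in MODP (SD, n = 3 each), a log2 fold change of 0.20 ± 0.06 (SE; edgeR adjusted p = 0.0304). Mcm5 had a similar log2 fold change, 0.18 ± 0.06 (SE), and no overlap between groups, but missed the threshold (edgeR adjusted p = 0.0504); once the replicate number was a block it passed (adjusted p = 0.0119 by edgeR). The other 4 subunits had log2 fold changes of 0.03 for Mcm6, 0.05 for Mcm7, 0.06 for Mcm2 and 0.10 for Mcm3, with overlapping groups. Their 95% intervals ended at 0.17 for Mcm6, 0.19 for Mcm7, 0.20 for Mcm2 and 0.24 for Mcm3. In the origin recognition complex, Orc6 passed at a log2 fold change of 0.22 ± 0.07 (SE; edgeR adjusted p = 0.0396), whereas Orc1 and Orc2 did not (log2 fold changes 0.09 and 0.01).

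Apart from Cdc6 these calls depended on single libraries. The licensing count, of 12, was 1 without MOP replicate 1 or MODP replicate 3, 2 without MOP replicate 2 or 3, and 1 under upper-quartile scaling. Of all genes tested, 9.75% were higher without MOP replicate 1 and 11.8% without MODP replicate 3. The share was 12.2% without MOP replicate 2 or 3 and 13.2% under upper-quartile scaling.

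Of the 4 genes that activate the loaded helicase, 2 were higher (50%, against 16.3% of all genes tested) and 0 lower (against 14.9%). Cdc45 (ENSMUSG00000000028), a core part of the moving helicase, stood at 137, 122 and 129 CPM in MOP, against 114, 95.9 and 100.4 CPM in MODP. All MOP libraries lay above all MODP libraries, with a log2 fold change of 0.32 ± 0.08 (SE; edgeR adjusted p = 0.0145), and the call was lost without MOP replicate 1. Gins2 (ENSMUSG00000031821), a GINS subunit, stood at 51.4, 48.0 and 50.9 CPM in MOP, against 46.1, 40.7 and 39.8 CPM in MODP (log2 fold change 0.25 ± 0.08, SE; edgeR adjusted p = 0.0424). Gins2 is uncertain, since 70.5% of its 31-mers occur in other transcripts and its exons overlap those of Gse1 on the other strand. Its partner Gins1 had a log2 fold change of 0.12 and did not pass. For Mcm10, which joins the helicase at firing, the log2 fold change was 0.21 ± 0.07 (SE), short of the threshold (edgeR adjusted p = 0.0528) but past it once the replicate number was a block (adjusted p = 0.0169 by edgeR). DESeq2 called 1 of the 4; none was called without MOP replicate 1, and 1 without MOP replicate 2 or 3 or MODP replicate 2 or 3.

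The 6 polymerase and primase genes among the members gave no call in either direction. None of the 6 reached an unadjusted p under 0.05 by edgeR, and DESeq2 called 0. Polymerase subunits outside the members, chosen after their values were seen, were called in both directions. Pold4 was higher, at a log2 fold change of 0.29, and Pole3 lower, at -0.18 (edgeR adjusted p = 0.0203 and 0.0495). Pold1 (ENSMUSG00000038644), the catalytic subunit of polymerase delta and the most abundant of the 6 per length, stood at 240.4, 226 and 226 CPM in MOP, against 242, 207 and 232 CPM in MODP. The groups overlapped, and the log2 fold change was 0.02 with a 95% interval of -0.14 to 0.18 (edgeR adjusted p = 0.851). Pole, Prim1, Pola2, Pola1 and Prim2 had log2 fold changes of 0.09, 0.06, 0.01, -0.02 and -0.04. The upper ends of the 6 intervals ran from 0.10 (Prim2) to 0.26 (Pole), below the log2 fold changes of Cdc6 and Rrm2. The upper ends of Pold1, Prim1 (0.21) and Pole lay above the log2 fold change of Rrm1 (0.16), the smallest among the called members. Those of Prim2, Pola1 and Pola2 lay below it. The 95% interval of Rrm1 itself, 0.04 to 0.28, overlapped the intervals of all 6 genes. The intervals thus do not set any of the 6 apart from Rrm1, and no difference between genes was tested.

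Among the clamp, its loader and the Okazaki fragment enzymes, 2 of 7 genes were higher and 0 lower. The shares were 28.6% and 0%, against 16.3% and 14.9% of all genes tested. Pcna (ENSMUSG00000027342), the sliding clamp, stood at 378, 357 and 362 CPM in MOP, against 320.1, 305 and 302 CPM in MODP. Lig1 (ENSMUSG00000056394), which seals Okazaki fragments, stood at 349.8, 321 and 328 CPM in MOP, against 292, 262 and 265 CPM in MODP. Neither gene's groups overlapped. The log2 fold changes were 0.24 ± 0.05 for Pcna and 0.29 ± 0.06 for Lig1 (SE; edgeR adjusted p = 0.00919 and 0.00989), and both calls were lost without MOP replicate 1 (edgeR adjusted p = 0.0535 and 0.0531), where 0 of the 7 passed. Of the 31-mers of Pcna 38.0% also occur in transcripts of other genes, so its counts may hold reads of near-identical copies.

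The clamp loader did not follow the clamp past the threshold. The log2 fold changes of Rfc3, Rfc4, Rfc2 and Rfc5 were 0.10, 0.07, 0.07 and -0.04, and only for Rfc4 did the groups not overlap. Fen1, the flap nuclease, had the lowest counts of the 41 genes, 107 to 153 reads in a library, and a log2 fold change of 0.04 ± 0.12 (SE). Fen1 is uncertain: 82.2% of its 31-mers occur in other transcripts, and most of its exon length lies opposite the gene Gm10143.

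All 4 nucleotide supply genes on the list were higher in MOP, against 16.3% of all genes tested. Rrm2 (ENSMUSG00000020649), the small subunit of ribonucleotide reductase, which is the S phase-limited one, stood at 385, 401 and 386 CPM in MOP, against 280.0, 284 and 269.9 CPM in MODP. The gap between the groups was far wider than the spread within either, and the log2 fold change was 0.49 ± 0.05 (SE), or 1.41-fold (edgeR adjusted p = 0.000461). Rrm1, the large subunit, was also higher, at 544 ± 8.04 CPM in MOP and 486 ± 18.8 CPM in MODP (SD, n = 3 each), with a log2 fold change of 0.16 ± 0.05 (SE; edgeR adjusted p = 0.0441).

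Tk1 (ENSMUSG00000025574), the thymidine kinase of cycling cells, stood at 188, 184 and 182 CPM in MOP, against 159, 137 and 153 CPM in MODP. Tyms (ENSMUSG00000025747), thymidylate synthase, stood at 114, 114 and 108 CPM in MOP, against 94.9, 95.6 and 100.4 CPM in MODP. The groups of both genes were apart, with log2 fold changes of 0.30 ± 0.06 and 0.21 ± 0.05 (SE; edgeR adjusted p = 0.00857 and 0.0199). Without MOP replicate 1, MOP replicate 2 or MODP replicate 1, and under upper-quartile scaling, 2 of the 4 were called; the call for Rrm1 was lost in all 6 fits without a library (edgeR adjusted p 0.0644 to 0.135).

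Slbp and Uhrf1 were higher among the 5 chromatin genes (40%, against 16.3% of all genes tested), and 0 were lower (against 14.9%). Slbp (ENSMUSG00000004642), which binds the stem-loop of replication-dependent histone mRNAs, stood at 211, 203 and 199 CPM in MOP, against 155, 152 and 145 CPM in MODP. All MOP libraries lay well above all MODP libraries (log2 fold change 0.44 ± 0.05, SE; edgeR adjusted p = 0.000762). Uhrf1 (ENSMUSG00000001228), which brings Dnmt1 to newly copied DNA, stood at 403, 379 and 388 CPM in MOP, against 337, 282 and 319 CPM in MODP, again without overlap (log2 fold change 0.32 ± 0.07, SE; edgeR adjusted p = 0.0114), and its call was lost without MOP replicate 1. The subunits of the CAF-1 histone chaperone, Chaf1a and Chaf1b, had log2 fold changes of 0.10 and -0.01, and Hells, a chromatin remodeller, of -0.05. None of these 3 passed. Of the 31-mers of Chaf1a 48.6% occur in other transcripts, and its exons overlap those of Ubxn6 on the other strand. Its counts may therefore hold reads of other genes.

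**Figure D3:**
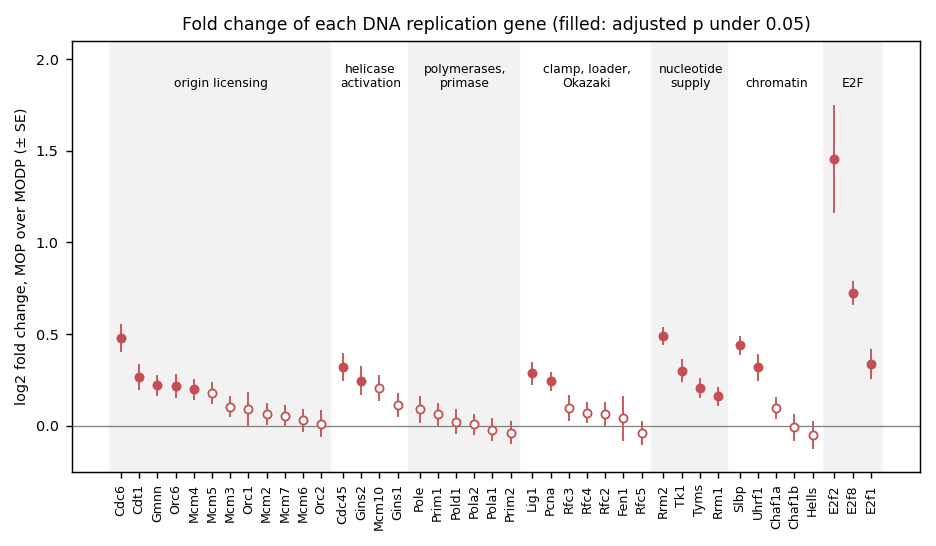
Log2 fold change of MOP over MODP (y axis) with its standard error for the 41 replication genes, ordered within each role; filled points have an adjusted p under 0.05. Values run from -0.05 for Hells to 1.45 for E2f2, and the polymerase and primase genes lie near 0.

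Per length of the principal transcript, the replication genes covered a wide range of levels. In MOP they ran from 4.44 CPM per kb (Fen1) to 247 CPM per kb (Mcm6), with a median of 47.4, and in MODP from 4.32 to 243 CPM per kb, with a median of 44.3. Mcm6 and Pcna stood highest in MOP, at 247 ± 6.75 and 241 ± 7.22 CPM per kb (SD, n = 3). Whether their levels differ was not tested. The ring subunits followed the order Mcm6, Mcm5, Mcm7, Mcm3, Mcm2 and Mcm4 in both groups, from 247 down to 106 CPM per kb in MOP and from 243 down to 92.7 CPM per kb in MODP. In that order Mcm7 and Mcm3 were close neighbours in MOP, at 182 ± 3.42 and 179 ± 5.62 CPM per kb (SD, n = 3). In MODP Mcm5, Mcm7 and Mcm3 were close, at 178.6 ± 11.3, 175.6 ± 10.2 and 166.5 ± 8.90 CPM per kb (SD, n = 3). All genes share the same libraries, so these SDs do not measure differences between genes, and none was tested. Of the 31-mers of Mcm7 47.6% also occur in transcripts of other genes, so its level may hold reads of those genes.

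Among the nucleotide genes, Rrm2 and Rrm1 stood at 178 ± 4.09 and 136 ± 2.01 CPM per kb in MOP, and at 127 ± 3.21 and 122 ± 4.71 CPM per kb in MODP (SD, n = 3 each). Orc1 was the lowest of the licensing genes, at 8.58 ± 0.701 CPM per kb in MOP and 8.05 ± 0.567 CPM per kb in MODP. E2f2 and E2f1 were at similar levels in MOP, 39.4 ± 2.82 and 41.5 ± 1.97 CPM per kb, whereas in MODP E2f2 was the lower of them, at 14.4 ± 5.43 against 32.8 ± 3.52 CPM per kb. These levels use transcript lengths of the GENCODE M21 annotation and are comparable between genes only as far as its principal transcripts are those expressed.

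**Figure D4:**
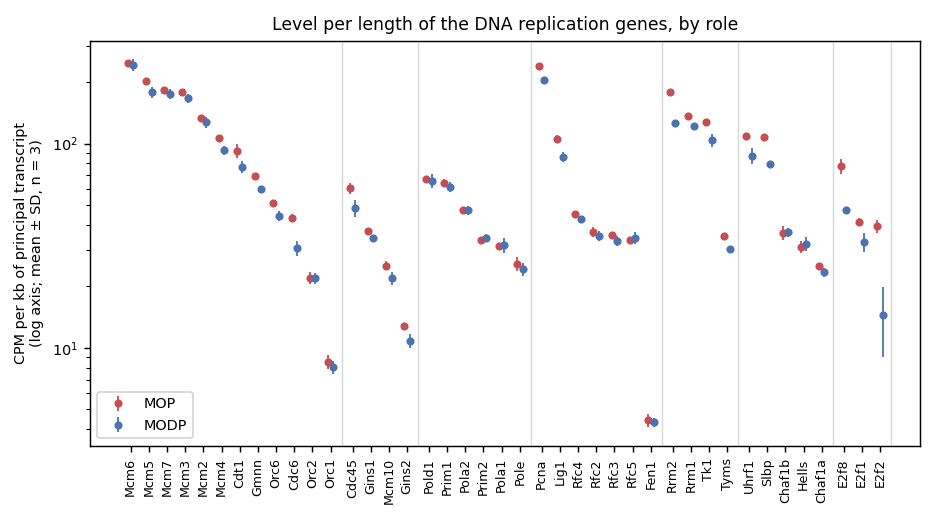
Level of each replication gene as CPM per kb of principal transcript (log y axis; mean ± SD, n = 3), MOP in red left of MODP in blue, ordered by MOP level within each role. Mcm6 and Pcna are highest and Fen1 lowest, at 4.44 CPM per kb in MOP.

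Other genes of the pathway were read from 5 further lists of 97 genes, all of them tested, with 22 calls for MOP higher, 12 for MOP lower and 63 genes short of the threshold (median log2 fold change 0.06). The calls made up 22.7% (higher) and 12.4% (lower) of the 97 genes, against 16.3% and 14.9% of all genes tested. Unlike the 41 members, these lists held calls in both directions, as did all genes tested. With the replicate number as a block 26 were higher and 20 lower; without MOP replicate 1, 13 were higher and 7 lower, and without MODP replicate 2, 20 were lower.

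In the E2F and RB network 8 of 16 genes were higher and 0 lower, and 8 missed the threshold. The shares were 50% higher and 0% lower, against 16.3% and 14.9% of all genes tested. At an unadjusted p under 0.05 by edgeR, and by DESeq2, 0 were lower. In each fit without a library 7 or 8 were higher, where 9.75% to 19.3% of all genes tested were. E2f7, the atypical partner of E2f8, stood at 50.8, 47.4 and 49.1 CPM in MOP, against 29.0, 29.2 and 26.4 CPM in MODP. Ccne1, the G1/S cyclin E1, stood at 57.1, 61.2 and 55.0 CPM in MOP, against 33.5, 27.1 and 28.9 CPM in MODP. Both pairs of groups were far apart, at log2 fold changes of 0.80 ± 0.07 and 0.95 ± 0.09 (SE; edgeR adjusted p = 0.000353 and 0.000393). Ccne2, the second cyclin E, had a log2 fold change of 0.57 ± 0.09 (SE; edgeR adjusted p = 0.00236). The 3 pocket proteins that restrain E2F factors, chosen after their values were seen, were all higher: Rb1 at log2 0.69, Rbl2 at 0.40 and Rbl1 at 0.32 (edgeR adjusted p = 0.00364, 0.00279 and 0.00443).

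The list of other replication machinery held 36 genes, 8 of them higher, 4 lower and 24 not past the threshold. The shares were 22.2% higher and 11.1% lower, against 16.3% and 14.9% of all genes tested. Dna2, a nuclease and helicase of Okazaki fragments and stalled forks, stood at 185, 171 and 173 CPM in MOP, against 115, 105 and 114 CPM in MODP. Its log2 fold change, 0.66 ± 0.06 (SE; edgeR adjusted p = 0.000347), was above that of every member but E2f2 and E2f8. Clspn, the claspin adaptor of the replication checkpoint, and Rnaseh2b, a subunit of RNase H2, had log2 fold changes of 0.39 and 0.25 (edgeR adjusted p = 0.00704 and 0.0136). The lower genes included Orc3, an origin recognition subunit, at 84.5, 85.8 and 81.7 CPM in MOP, against 104, 103 and 114 CPM in MODP. Orc3 fell by 0.35 ± 0.06 (SE) on the log2 scale, Mcm8, a helicase of recombination repair, by 0.34 and Rnaseh2a, the catalytic subunit of RNase H2, by 0.24 (edgeR adjusted p = 0.00366, 0.0138 and 0.0215). Within the origin recognition complex Orc6 was thus higher and Orc3 lower. Of these 36 genes 2 were higher and 2 lower without MOP replicate 1, 5 and 2 without MOP replicate 2 or MODP replicate 1, 3 and 1 without MOP replicate 3, and 3 and 2 without MODP replicate 3.

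The other nucleotide genes were split. Of these 16 genes, 2 had higher and 6 lower levels, with a median log2 fold change over the 16 of -0.22, while all 4 members of this role were higher. The shares of the 16 were 12.5% higher and 37.5% lower, against 16.3% and 14.9% of all genes tested. Dck, the deoxycytidine salvage kinase, stood at 142, 152 and 132 CPM in MOP, against 89.2, 96.7 and 79.7 CPM in MODP. Samhd1, which breaks down deoxynucleotides, stood at 326, 314 and 306 CPM in MOP, against 162, 201 and 140.2 CPM in MODP. The higher pair thus held one gene that makes deoxynucleotides and one that removes them, at log2 fold changes of 0.68 ± 0.08 and 0.91 ± 0.12 (SE; edgeR adjusted p = 0.000881 and 0.00231).

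Among the 6 lower genes, Dctd, which deaminates dCMP on the route to dTMP, stood at 15.1, 14.0 and 16.8 CPM in MOP, against 29.5, 28.8 and 37.5 CPM in MODP. Shmt1, a serine hydroxymethyltransferase of folate metabolism, stood at 47.9, 51.9 and 54.9 CPM in MOP, against 84.8, 78.6 and 84.9 CPM in MODP. Neither gene's groups overlapped. Dctd fell by 1.07 ± 0.13, Shmt1 by 0.68 ± 0.07 and the nucleoside diphosphate kinase gene Nme1 by 0.49 ± 0.09 (SE) on the log2 scale (edgeR adjusted p = 0.000788, 0.000498 and 0.00468). Over the fits without a library 2 or 3 of the 16 were higher and 4 to 8 lower.

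Of 10 other chromatin genes 1 was higher (10%, against 16.3% of all genes tested). This was the histone chaperone gene Asf1b, which hands histones to CAF-1. Asf1b stood at 108, 108 and 113 CPM in MOP, against 64.2, 69.2 and 60.8 CPM in MODP, a log2 fold change of 0.76 ± 0.06 (SE; edgeR adjusted p = 0.000299). No other gene of this list passed; 0 were lower, against 3 at an unadjusted p under 0.05, 0 by DESeq2, 2 with the replicate number as a block (where 2 were higher) and 2 without MODP replicate 2. On the list of 19 replication checkpoint and repair genes 3 were higher, 2 lower and 14 not called. The shares were 15.8% higher and 10.5% lower, against 16.3% and 14.9% of all genes tested. Bard1, the partner of Brca1, had a log2 fold change of 0.59, Rad9a, of the checkpoint clamp, 0.35 and Brca1 0.27 (edgeR adjusted p = 0.00474, 0.0216 and 0.0332), whereas Atr, the kinase that answers stalled forks, fell by 0.37 on the log2 scale (edgeR adjusted p = 0.0126). With the replicate number as a block 5 of these 19 were lower, 5 were lower without MODP replicate 2, and 1 was higher and 1 lower without MOP replicate 1.

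Mitosis genes, the list most like the replication genes in being bound to the cycle, were also higher or not called. Of 24 genes 13 were higher and 0 lower (0 at an unadjusted p under 0.05 by edgeR and 0 by DESeq2). The shares were 54.2% higher and 0% lower, against 16.3% and 14.9% of all genes tested. The median log2 fold change was 0.20, against 0.12 for the replication genes, and whether the lists differ was not tested. Mki67, the proliferation antigen Ki-67, stood at 1580.1, 1578 and 1521 CPM in MOP, against 1020.5, 1029.6 and 990.3 CPM in MODP (log2 fold change 0.62 ± 0.05, SE; edgeR adjusted p = 0.00023). Every MOP library exceeded every MODP library by a wide margin. Foxm1, a factor that drives mitosis genes, and Ccnb2, cyclin B2, had log2 fold changes of 0.52 and 0.32 (edgeR adjusted p = 0.00179 and 0.00304). The mitosis count was 5 to 13 over the fits without a library, in which 9.75% to 19.3% of all genes tested were higher. It was 6 without MOP replicate 1, 8 without MOP replicate 2 and 5 without MOP replicate 3 or MODP replicate 1. Under upper-quartile scaling it was 8, with 13.2% of all genes tested higher. Summed over each list, the replication genes stood at 9246, 8824 and 8871 CPM in MOP, against 8248, 7523 and 7832 CPM in MODP, and the mitosis genes at 5441, 5494 and 5554 CPM in MOP, against 4337, 4343 and 4580.0 CPM in MODP.

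**Figure D5:**
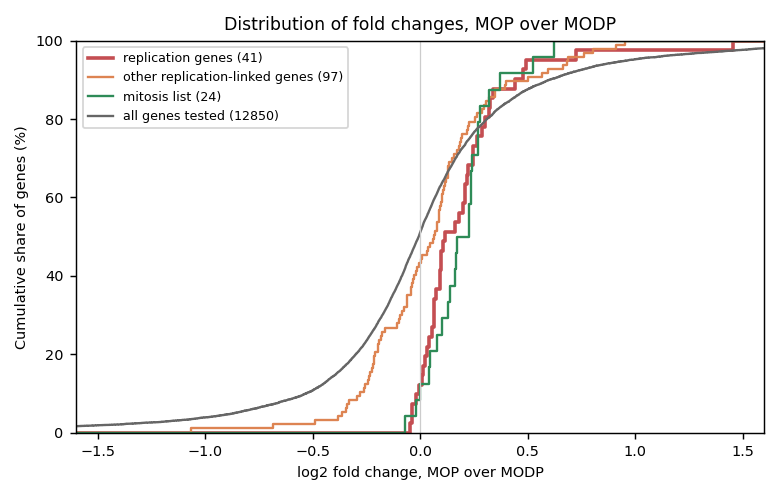
Cumulative share of genes (y axis, %) by log2 fold change of MOP over MODP (x axis) for the 41 replication genes, 97 other replication-linked genes, 24 mitosis genes and all 12850 genes tested; some genes of the full table lie beyond the axis. The replication and mitosis curves start near 0, while the other replication-linked genes also reach negative values.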

How the data were processed

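The deposited table held whole-number read counts per Ensembl gene, without normalization, for 6 libraries of sorted marrow progenitors. Libraries were made with a TruSeq RNA kit from TriZol-extracted RNA, per the labels' protocols, with TopHat 1.4 and HTSeq listed in the submitters' processing notes; no source used here gives the genome build, annotation or strand setting, so reads of overlapping genes on opposite strands cannot be told apart. Groups follow the cell type label. Nothing in the labels says that a group's replicates are separate animals, so p-values reflect only the variation among these libraries, possibly technical.

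Symbols came from GENCODE M21 by gene identifier (20840 of 22271 matched). Genes kept by filterByExpr (12850) were tested with edgeR 4.0.16 in R 4.3.3 (quasi-likelihood, robust, TMM scaling, group as sole factor, Benjamini-Hochberg adjustment over all genes tested, threshold 0.05). CPM values, standard errors and 95% intervals come from that fit. Fold changes are MOP over MODP. Levels per length divide CPM by the length of the longest principal transcript. Genes with at least 50% of their 31-mers in transcripts of other genes were called uncertain. The procedure was also run on simulated counts, and no result given here rests on that run. Alternatives were DESeq2 1.42.0, other scalings and filters, a fit without robust estimation, replicate blocks, and fits without a library.

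The members and lists were chosen with earlier results of these data known. In each role, library values are given for up to 3 called members by smallest adjusted p, or for the most abundant member where none passed; from other lists, up to 3 called genes in each direction are named, except that a gene this rule selects is not reported here.

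The column names number the libraries 1 to 3 in each group, whereas the titles carry WT1, WT2 and WT1. Deviations from the group means were correlated between MOP and MODP libraries over 9351 genes with a mean log2 CPM over 3. The correlations were 0.589, 0.607 and 0.507 for libraries with the same column number and -0.449 to 0.0503 for other pairs. The column numbers were therefore used as pairs in the replicate block alternative. The main fit, which gave the calls, standard errors and intervals, took no account of this pairing. With the block 20 members were higher, against 18 in the main fit. Within a group, the chi-square of 2 libraries' counts was 7.35 to 34.7 per degree of freedom, so none repeated another.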

Additional observations from a re-analysis of the deposited data

How the results depend on the processing

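Of the 41 replication genes 0 were lower past the threshold in any of the 15 alternatives, but 9 that were not called had log2 fold changes of both signs across the settings, and 30 were above 0 under upper-quartile scaling, against 36. The count of higher members was 5 to 16 over the 6 fits without a library and 11 under upper-quartile scaling, against 18. The median log2 fold change of the members was 0.060 under upper-quartile scaling, against 0.12, and 0.10 to 0.15 without a library; under that scaling all genes together shifted by -0.05 and split into 1692 higher and 2452 lower, against 2095 and 1913. Without a library, 1281 to 2524 genes of the whole table were higher (9.75% to 19.3% of those tested) and 1036 to 2275 lower. Under upper-quartile scaling the medians of the polymerase and primase genes and of the other chromatin genes turned to -0.041 and -0.035. With the replicate number as a block (replicate block, column number) 20 members were higher, with Mcm5 and Mcm10 added, and 2724 genes of the table were higher and 2544 lower; with the title number as the block 20 members were higher. The block changed no other member's call. The cause of these shifts was not tested. In each fit without a library 1 group rests on 2 libraries. The smallest called difference among the members was that of Rrm1, log2 0.16, and every member had over 100 reads in each library.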
